A study of Homo sapiens with 6 samples.

Results

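The RAB genes encode the largest branch of small GTPases that direct membrane traffic, and their RNA was compared between HMCB melanoma cells that received an siRNA against AHCYL1 and cells that received a control siRNA. Members were taken by name alone, as every row of the deposited table whose symbol is RAB, a number and at most 1 letter from A to D, which found 62 of 26902 genes. Genes that only carry RAB in a longer symbol, such as RABL6 or RAB3GAP1, were not members. HMCB is an established line from a human melanoma, and its NRAS Q61K mutation, named in the labels, is shared by all 6 libraries. There were 3 libraries of cells given the control siRNA (siNC) and 3 of cells given the AHCYL1 siRNA (siAHCYL1), with RNA taken 3 days after transfection. Replicates are described as biological, but no label names a culture for each, so p-values measure the spread between these libraries, which may be technical.

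A RAB protein works as a switch. An exchange factor (GEF) loads it with GTP on one membrane, where it recruits effectors such as motors and tethers, and a GTPase-activating protein (GAP) turns it off. A lipid tail, added by geranylgeranyl transferase with the help of an escort protein, anchors it to the membrane, and GDI proteins extract it again. Each RAB marks its own compartment, and melanocytes use a dedicated set, RAB27A, RAB32 and RAB38, to build and move melanosomes, the pigment organelles.

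AHCYL1, which binds the IP3 receptors of the endoplasmic reticulum, was measured at 150.02, 134.05 and 131.09 TPM in the siNC libraries and at 13.45, 11.13 and 10.97 TPM in the siAHCYL1 libraries. TPM (a transcript abundance corrected for length and scaled to the library) allows levels to be compared between genes. AHCYL1 thus fell in all 3 libraries given its siRNA (log2 fold change -3.44, SE 0.096, adjusted p = 5.64e-08 by limma). Its exact two-sided permutation p was 0.1, the smallest that 3 against 3 libraries allows. Of 9 melanocytic markers, SOX10 was at 1025.35 to 1049.98 TPM in siNC and 992.99 to 1026.67 TPM in siAHCYL1, while TYR, the tyrosinase of melanin synthesis, was listed at 0 in every library and MLANA did not exceed 0.79 TPM. Summed markers of other cell types were low. The 6 keratinocyte and epithelial markers summed to 12.25 to 23.6 TPM in siNC and 16.7 to 22.9 in siAHCYL1, nearly all of it KRT10, with KRT5, KRT1 and CDH1 at 0. The 6 fibroblast markers summed to 15.4 to 17.9 and 26.1 to 32.4 TPM, mostly LUM, with PDGFRA at 0. The 6 immune and blood markers summed to 3.71 to 4.18 and 7.64 to 11.2 TPM, mostly PTPRC, with CD3E and HBB at 0. The 5 endothelial markers summed to 9.13 to 11.2 and 6.46 to 7.25 TPM, mostly KDR, with VWF at 0. The part of these markers in the results below was not tested.

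Most RAB genes were expressed in these cells, and their RNA was shared unevenly. In siNC, 8 members had a mean above 100 TPM, 32 lay between 10 and 100, 12 between 1 and 10, and 10 below 1 TPM. The siAHCYL1 libraries had 10, 29, 13 and 10 members in the same ranges. RAB7A, which drives fusion of late endosomes with lysosomes, was the most abundant member in both groups, at 434.49, 398.58 and 376.92 TPM in siNC and 395.55, 335.86 and 342.28 TPM in siAHCYL1. Its groups overlapped and it did not pass the test (log2 fold change -0.17, adjusted p = 0.099). RAB11B and RAB13, described below, were next by the mean of all libraries, although RAB5C stood above RAB13 in siNC (203 against 193 TPM). The 5 most abundant members, RAB7A, RAB11B, RAB5C, RAB13 and RAB10, held 41.2% of the summed RAB TPM in siNC and 44.2% in siAHCYL1. That sum was 2875 to 2970 TPM in siNC and 3213 to 3370 TPM in siAHCYL1, so the libraries of the 2 groups did not overlap in it.

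Of the 62 members, 9 did not reach 1 TPM in 3 or more libraries, the filter used, and were not tested. RAB19 was listed at 0 throughout. RAB25, an epithelial relative of RAB11, and RAB6C, a retrogene copy of RAB6A, were above 0 in 1 library each, at 0.17 and 0.04 TPM. RAB42 was listed at 0 in all siNC libraries and at 0.15, 0.33 and 0 TPM in siAHCYL1. RAB3B, RAB6B, RAB37, RAB41 and RAB44 did not exceed 0.62 TPM in any library.

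The other 53 members were tested within a fit of all 13266 genes that passed the filter, on log2(TPM + 1), which understates the change of low genes. A gene was called at a limma adjusted p under 0.05. Of the 53, 20 were higher and 13 lower after the AHCYL1 siRNA, and 20 did not pass, so 62.3% were called where 51.6% of all genes tested were. The higher members made up 37.7% of those tested (30.4% of all genes) and the lower ones 24.5% (21.2% of all genes). These shares are near those of the whole table. The median log2 fold change of the 53 was 0.09 and that of all genes 0.06. The groups did not overlap in 37 of the 53 (69.8%, against 59.2% of all genes). Relative scaling moved the split, with 18 higher and 17 lower under median-of-ratios scaling and 17 and 17 under quantile normalization. At least 1.5-fold, 8 members were higher and 7 lower, 28.3% of those tested against 23.5% of all genes (14.5% higher and 9.08% lower). Under either of these scalings the split was 3 and 8. Among the members counted, RAB30 met the filter only through the siAHCYL1 libraries and RAB27B only through the siNC libraries. In bulk RNA, fewer cells of a type and less RNA per cell cannot be told apart.

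**Figure D1:**
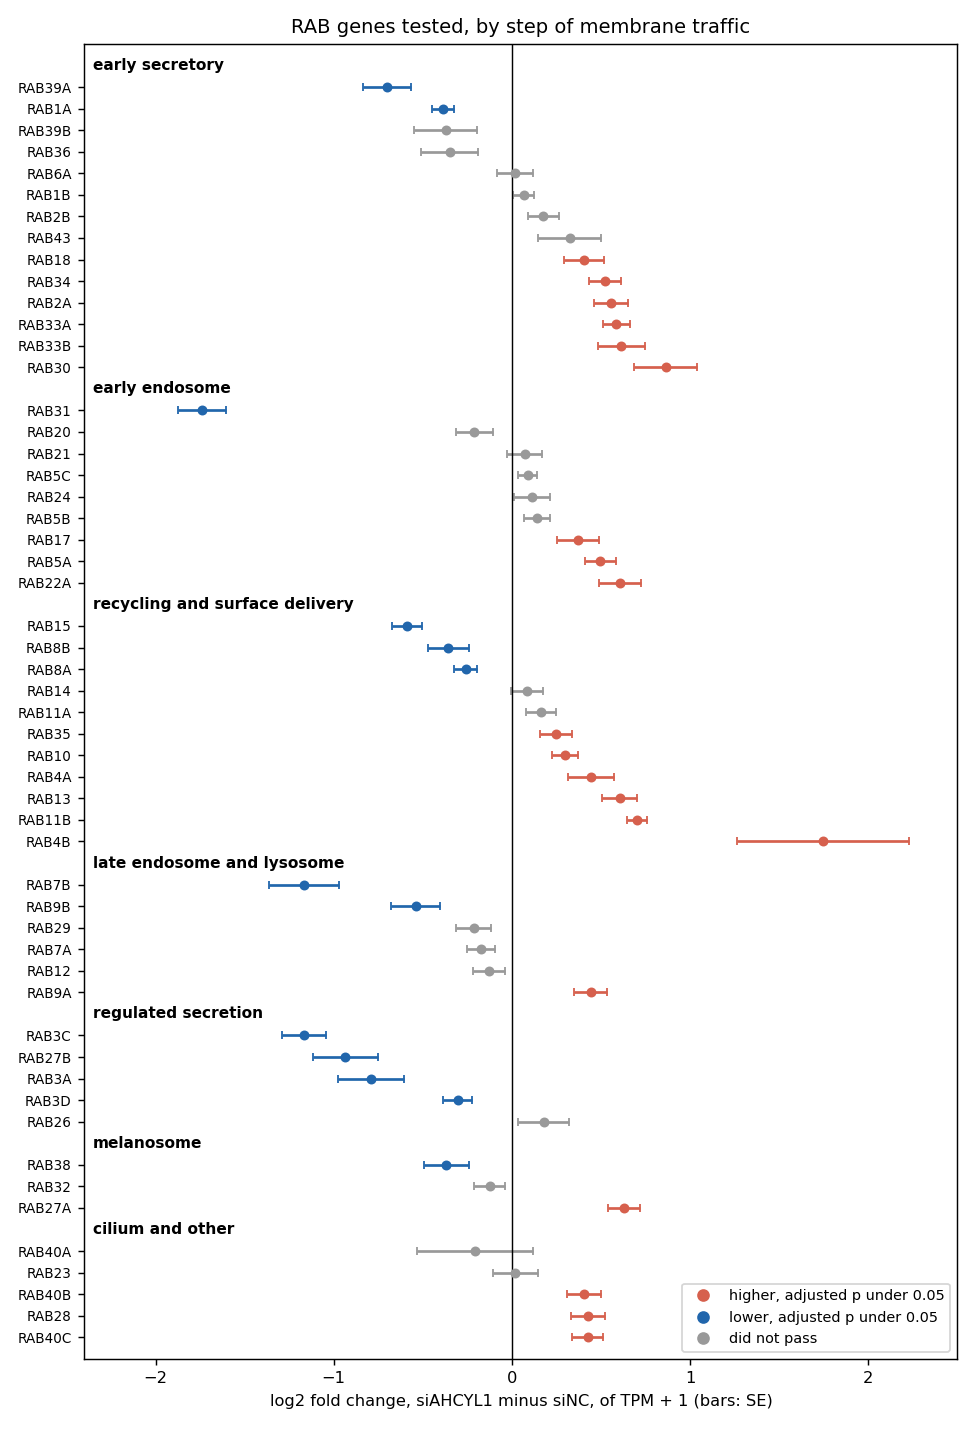
Log2 fold change of TPM + 1 (horizontal axis, siAHCYL1 minus siNC) for the 53 RAB genes tested, grouped by the step of traffic each is best known for; bars are the SE of the fit and colour marks the call. RAB31 lies farthest to the left at -1.74 and RAB4B farthest to the right at 1.75 with the widest bar (SE 0.48), and 4 of the 5 regulated secretion genes lie to the left.

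Lower members were on the whole less abundant than higher ones, described here with a split at a mean of 20 TPM that was chosen after the values were seen. Of 19 members under 20 TPM, 5 were higher and 8 lower, that is 26.3% and 42.1%, where all genes under 20 TPM had 27.1% and 20.3%. Of 34 members at or above 20 TPM, 15 were higher and 5 lower, 44.1% and 14.7%, where all genes at that level had 33.0% and 22.0%. The difference between these shares was not tested.

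**Figure D2:**
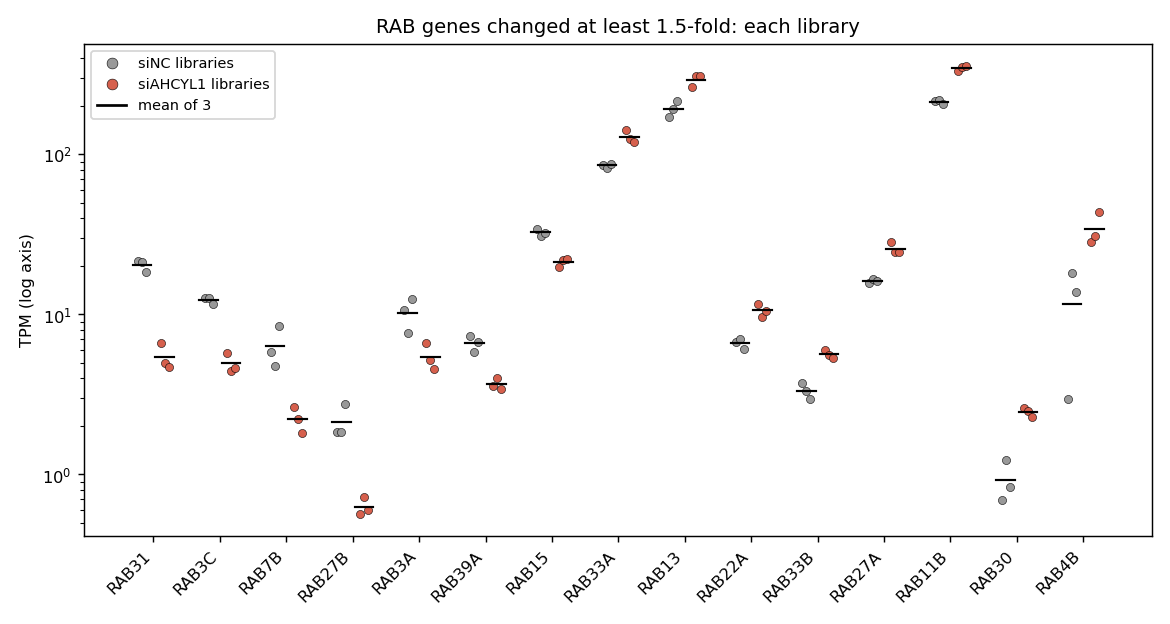
TPM on a log axis in each library for the 15 RAB genes called with at least a 1.5-fold change, ordered by log2 fold change; grey points are siNC, red points siAHCYL1 and black lines the mean of 3. The groups do not overlap in any of the 15, but these were picked by their values in the same libraries. Of all genes tested, 59.2% do not overlap. The siNC point of RAB4B at 2.98 TPM sits far below the other siNC points of that gene.

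RABs of the endoplasmic reticulum and Golgi went both ways, with 6 of 14 tested higher and 2 lower. That is 42.9% and 14.3%, against 30.4% and 21.2% of all genes. RAB30, a Golgi RAB, had 0.69, 1.24 and 0.83 TPM in siNC and 2.62, 2.48 and 2.30 TPM in siAHCYL1. All siAHCYL1 libraries were above all siNC libraries, at a low level (log2 fold change 0.86, SE 0.17, adjusted p = 0.00277). RAB30 met the filter only through the siAHCYL1 libraries, where it was high, so its call and separation are no independent support. In the fit without a filter its adjusted p was 0.003045. RAB33A, whose known expression is mostly in brain and lymphocytes, was well above its Golgi and autophagy paralog RAB33B here. It rose from 86.41, 82.57 and 87.51 TPM to 142.62, 124.53 and 120.35 TPM (0.59, SE 0.077, adjusted p = 0.000222). RAB33B rose from 3.75, 3.31 and 2.97 TPM to 5.97, 5.58 and 5.36 TPM (0.61, SE 0.13, adjusted p = 0.00389). The groups did not overlap for either paralog.

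RAB2A, which acts in Golgi-to-ER and lysosomal traffic (0.56), RAB34, of the Golgi and early cilium (0.52), and RAB18, of the ER and lipid droplets (0.41), also rose, while RAB39A and RAB1A fell. RAB39A, counted in this group although it is also linked to late endosomes and autophagy, went from 7.30, 5.80 and 6.69 TPM to 3.57, 4.0 and 3.41 TPM without overlap (-0.70, SE 0.13, adjusted p = 0.00198). RAB1A, which with RAB1B is required for transport from the ER to the Golgi, went from 169.66, 167.92 and 172.13 TPM to 137.43, 125.12 and 126.39 TPM (-0.39, SE 0.062, adjusted p = 0.000695). RAB1B, at 152 ± 5.54 and 160 ± 3.37 TPM (SD, n = 3), did not pass (0.07, adjusted p = 0.365). RAB1A therefore held 51.8% to 53.7% of the RNA of this pair in siNC and 43.6% to 46.9% in siAHCYL1. RAB2B, RAB6A, RAB36, RAB39B and RAB43 did not pass, with log2 fold changes from -0.37 (RAB39B) to 0.32 (RAB43). The readthrough gene ISY1-RAB43, at 19.21 to 24.12 TPM, shares exons with RAB43, at 4.86 to 8.88 TPM, so the value of RAB43 is uncertain.

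Early endosome RABs held the deepest fall among the members. RAB31, which carries cargo from the trans-Golgi to endosomes, had 21.44, 21.23 and 18.44 TPM in siNC and 6.66, 4.99 and 4.67 TPM in siAHCYL1, 26.7% of the control level. The highest siAHCYL1 library lay far under the lowest siNC library (log2 fold change -1.74, SE 0.14, adjusted p = 1.1e-05). RAB22A, its paralog, which sorts cargo from early to recycling endosomes, went the other way, from 6.71, 7.06 and 6.06 TPM to 11.67, 9.62 and 10.50 TPM (0.61, SE 0.12, adjusted p = 0.00223).

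RAB5A, 1 of 3 RAB5 isoforms that drive fusion of early endosomes, rose from 24.6 ± 1.37 to 35.2 ± 2.35 TPM (0.50, adjusted p = 0.00112). The other isoforms did not pass, RAB5B with 0.14 (adjusted p = 0.137) and RAB5C, the most abundant, with 203 ± 1.65 against 217 ± 2.31 TPM and 0.09 (adjusted p = 0.186). RAB17, a RAB of epithelial sorting, was higher (0.37, adjusted p = 0.0269), with overlapping groups, and the call was lost in 7 of 14 alternative fits. RAB20, RAB21 and RAB24 did not pass, with log2 fold changes from -0.21 to 0.11. Over all 9 genes of this group, 3 were higher, 1 lower and 5 did not pass. That is 33.3% higher and 11.1% lower, against 30.4% and 21.2% of all genes.

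Among the groups, RABs of recycling endosomes and delivery to the cell surface gained most in their share of all RAB TPM. Of 11 tested, 6 were higher (54.55%) and 3 lower (27.3%), against 30.4% and 21.2% of all genes. The sum of this group was 932.0 to 940.2 TPM in siNC and 1205 to 1241 TPM in siAHCYL1. That is 31.5% to 32.4% and 35.7% to 38.6% of all RAB TPM. RAB11B, a RAB of the recycling endosome, was the most abundant of them. It had 216.43, 217.59 and 206.38 TPM in siNC and 334.45, 354.27 and 355.27 TPM in siAHCYL1, a clear gap between the groups (log2 fold change 0.70, SE 0.057, adjusted p = 1.4e-05). The antisense gene RAB11B-AS1, which overlaps its exons, was at 7.61 to 14.47 TPM, and the libraries do not tell strands apart. RAB11A, of the same compartment, did not pass, at 39.1 ± 1.28 and 44.0 ± 3.70 TPM (0.16, adjusted p = 0.125).

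RAB13, known from the delivery of proteins to cell junctions, had 170.77, 192.20 and 217.07 TPM in siNC and 263.53, 309.54 and 308.11 TPM in siAHCYL1. The groups did not overlap (0.60, SE 0.097, adjusted p = 0.000775). RAB10, of surface delivery (0.30, adjusted p = 0.00804), RAB4A, of fast recycling (0.44, adjusted p = 0.0185), and RAB35 (0.25, adjusted p = 0.0452) were higher too. The RAB35 call was lost in 10 of 14 alternative fits and that of RAB4A in 4.

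RAB4B, the paralog of RAB4A, had the largest rise and the least certain value. It was at 2.98, 18.03 and 13.74 TPM in siNC and at 28.32, 31.06 and 43.86 TPM in siAHCYL1 (1.75, SE 0.48, adjusted p = 0.0135). The groups did not overlap, but siNC replicate 1 stood far below the other siNC libraries. Without that library the log2 fold change was 1.06 (adjusted p = 0.00182). The readthrough genes MIA-RAB4B and RAB4B-EGLN2 share its exons and were listed at 0 to 2.86 and 0 to 1.30 TPM, so reads could be divided between them and RAB4B.

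The falls in this group were those of RAB15 and both RAB8 genes. RAB15, of endocytic recycling, went from 34.30, 30.98 and 32.41 TPM to 19.81, 22.05 and 22.06 TPM without overlap (-0.59, SE 0.085, adjusted p = 0.000403). RAB8A, of exocytic transport and the cilium, went from 99.6 ± 4.29 to 83.0 ± 3.34 TPM (-0.26, adjusted p = 0.00911). RAB8B had a log2 fold change of -0.36 (adjusted p = 0.0289), a call lost in 5 of 14 alternative fits. RAB14 did not pass (0.08, adjusted p = 0.457).

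Among late endosome and lysosome RABs, 1 of 6 was higher (16.7%) and 2 were lower (33.3%), against 30.4% and 21.2% of all genes. The number lower depended on the fit: it was 5 under median-of-ratios scaling, 4 under quantile normalization, and 4 without siAHCYL1 replicate 1 or without replicate 1 of both groups, with 1 higher in each. With a filter of at least 5 TPM in at least 3 libraries, 4 were tested, with 1 higher and 0 lower. The members lower in the main fit, RAB7B and RAB9B, did not enter that fit. The share of this group in all RAB TPM was 19.1% to 21.1% in siNC and 15.8% to 17.5% in siAHCYL1. Its sum overlapped, at 548.6 to 625.4 TPM in siNC and 507.5 to 590.6 TPM in siAHCYL1. Most of that sum was RAB7A, and the sum of all RAB genes rose. RAB7B, which takes part in transport from late endosomes to the trans-Golgi and is only distantly like RAB7A, had 5.85, 4.79 and 8.41 TPM in siNC and 2.63, 2.22 and 1.82 TPM in siAHCYL1. The groups did not overlap (-1.17, SE 0.20, adjusted p = 0.000981). RAB9A, which returns mannose 6-phosphate receptors to the trans-Golgi, rose from 56.20, 47.74 and 46.52 TPM to 74.63, 66.00 and 64.46 TPM (0.44, SE 0.093, adjusted p = 0.00353). Its low paralog RAB9B fell from 6.22, 5.19 and 4.83 TPM to 3.43, 3.59 and 3.17 TPM (-0.54, SE 0.14, adjusted p = 0.00916). RAB12 (-0.13, adjusted p = 0.246), RAB29, a partner of the kinase LRRK2 (-0.21, adjusted p = 0.0953), and RAB7A did not pass. All 3 were called lower under median-of-ratios scaling, with adjusted p = 0.0479 for RAB12, 0.01995 for RAB29 and 0.0129 for RAB7A. RAB12 (adjusted p = 0.0251) and RAB29 (0.0116) also passed under quantile normalization.

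RABs of regulated secretion, which prime and dock secretory vesicles, were lower in 4 of 5 tested members and higher in 0, and none of those tested was higher in any of 14 alternative fits. The lower members were 80% of those tested, against 21.2% of all genes. The share depends on which genes were placed in this group, and roles were chosen with earlier results known. RAB27A, the paralog of RAB27B, was placed with the melanosome RABs and rose (0.63, adjusted p = 0.000405). RAB3C, a synaptic vesicle RAB, had 12.72, 12.60 and 11.68 TPM in siNC and 5.78, 4.46 and 4.62 TPM in siAHCYL1, 40.2% of the control level (log2 fold change -1.17, SE 0.12, adjusted p = 6.21e-05). RAB3A went from 10.72, 7.61 and 12.44 TPM to 6.62, 5.17 and 4.54 TPM (-0.79, SE 0.19, adjusted p = 0.00593). All siAHCYL1 libraries lay below all siNC libraries for RAB3C and RAB3A. Exons of RAB3A overlap those of MPV17L2 on the opposite strand, at 47.99 to 50.2 TPM in siNC and 41.86 to 47.17 TPM in siAHCYL1. The libraries do not tell strands apart, so reads could be divided between these genes and the value of RAB3A is uncertain. RAB27B, the paralog of RAB27A, went from 1.84, 1.84 and 2.74 TPM to 0.57, 0.72 and 0.60 TPM, also without overlap (-0.93, SE 0.18, adjusted p = 0.00238). RAB27B met the filter only through the siNC libraries, where it was high, so its call and separation are no independent support. In the fit without a filter its adjusted p was 0.002267.

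RAB3D, the most abundant of the secretory set, fell from 24.23, 23.14 and 22.86 TPM to 18.80, 18.78 and 18.69 TPM (-0.30, SE 0.080, adjusted p = 0.0107). Its exons overlap those of TMEM205, which fell from 142.01, 134.30 and 143.87 TPM to 117.90, 114.19 and 126.90 TPM, and of CCDC159, which rose to 11.45 to 20.60 TPM, so its value is uncertain. RAB26 did not pass (0.18, adjusted p = 0.323). The sum of this group, with RAB3B and RAB37, was 52.0 to 56.6 TPM in siNC and 34.9 to 38.7 TPM in siAHCYL1.

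The melanosome RABs did not move together. RAB27A, which tethers mature melanosomes through MLPH to the motor MYO5A, had 15.81, 16.77 and 16.21 TPM in siNC and 28.18, 24.60 and 24.44 TPM in siAHCYL1, 1.58-fold higher by the means. The groups were well apart (log2 fold change 0.63, SE 0.091, adjusted p = 0.000405). PIGBOS1 and PIGB share exonic sequence with RAB27A, and PIGBOS1 rose as well, from 7.76, 10.90 and 10.64 TPM to 15.91, 14.45 and 16.01 TPM.

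RAB32 and RAB38, which deliver melanin-forming enzymes to the immature melanosome, were not higher. RAB32 had 45.82, 54.20 and 46.88 TPM in siNC and 42.20, 47.75 and 44.30 TPM in siAHCYL1, with overlapping groups (-0.13, SE 0.088, adjusted p = 0.26). RAB38 had 17.06, 16.65 and 14.61 TPM against 10.99, 14.58 and 11.38 TPM. Its groups were separated only between 14.58 and 14.61 TPM, and the call (-0.37, SE 0.12, adjusted p = 0.0331) was lost in 6 of 14 alternative fits. Cargo and partner genes differed widely in level. HPS1 and HPS4, which load RAB32 and RAB38, had means of 13.7 and 33.19 TPM in siNC and 19.82 and 36.15 TPM in siAHCYL1. TYR and MLPH were listed at 0 in every library, and MYO5A had 9.22 to 10.21 TPM in siNC and 10.46 to 12.34 TPM in siAHCYL1 (0.20, adjusted p = 0.137). Of the melanocytic markers, 4 of 7 tested were higher and 1 lower, and over the alternative fits 2 to 4 were higher. In the main fit these are 57.1% and 14.3%, against 30.4% and 21.2% of all genes. TYRP1, a melanin enzyme carried by RAB32 and RAB38, rose from 1.07, 1.66 and 2.03 TPM to 5.02, 2.69 and 3.57 TPM (0.87, adjusted p = 0.00897). PMEL, the fibril protein of the melanosome, rose from 1.53, 0.76 and 0.34 TPM to 1.94, 1.63 and 1.91 TPM (0.64, adjusted p = 0.0484). Both stayed at low levels without overlap of the groups, but those of PMEL were separated only between 1.53 and 1.63 TPM. PMEL met the filter only through the siAHCYL1 libraries, where it was high. S100B (1.35) and S100A1 (0.57), calcium-binding proteins, rose too. The melanin enzyme DCT fell from 10.79, 11.49 and 11.95 TPM to 0.24, 0.15 and 0.62 TPM, and MITF, the melanocyte transcription factor, did not pass (-0.16, adjusted p = 0.342).

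The last 8 members form a mixed group of cilium and other roles. Of the 5 tested, 3 were higher (60%) and 0 lower, against 30.4% and 21.2% of all genes. RAB28, a ciliary RAB (0.42, adjusted p = 0.00494), and RAB40B (0.40, adjusted p = 0.00641) and RAB40C (0.43, adjusted p = 0.0029), which carry a SOCS box and recruit a ubiquitin ligase, rose. RAB23, a negative regulator of Hedgehog signalling, did not pass, at 25.7 ± 2.76 and 26.2 ± 4.47 TPM (0.02, adjusted p = 0.913). RAB40A varied widely in siAHCYL1, at 2.75, 0.76 and 0.69 TPM, and did not pass (-0.21, adjusted p = 0.623).

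Close paralogs were set side by side in 19 fixed pairs, of which 16 had both genes tested. In 3 pairs the paralogs were called in opposite directions, in 3 both were higher, in 2 both were lower, in 7 only 1 was called, and in 1 neither was. A paralog that misses the threshold is not shown to differ from one that passes. The pairs share genes where a family has more than 2, as for RAB5 and RAB3. In the opposite pairs, RAB22A held 23.8%, 25.0% and 24.7% of the summed RNA of RAB22A and RAB31 in siNC and 63.7%, 65.9% and 69.2% in siAHCYL1. The larger partner thus changed, while the summed level of the pair went from 27.0 ± 2.15 to 16.0 ± 2.01 TPM. RAB27A held 89.6%, 90.1% and 85.5% of its pair with RAB27B in siNC and 98.0%, 97.2% and 97.6% in siAHCYL1. RAB27B met the filter only through the siNC libraries. RAB9A held 90.04%, 90.2% and 90.6% of its pair with RAB9B in siNC and 95.6%, 94.8% and 95.3% in siAHCYL1. These 3 pairs were picked by calls from the same libraries, so the full separation of their shares followed from that choice. Their exact two-sided permutation p of 0.1, the smallest possible (0.16 after Benjamini-Hochberg adjustment over the 16 pairs), is therefore no support.

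**Figure D3:**
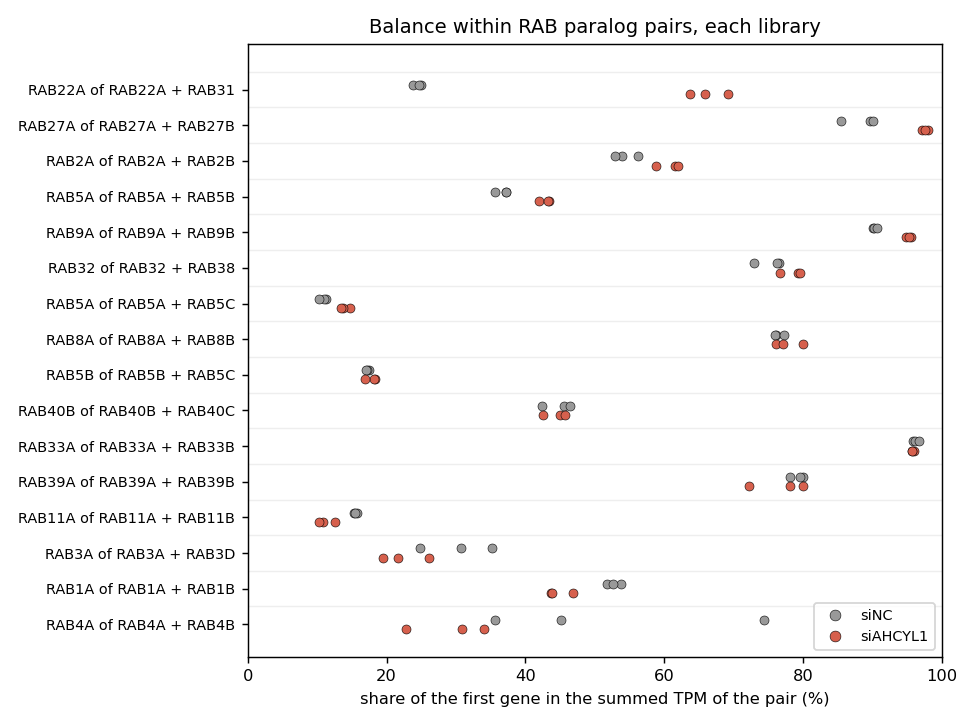
Share of the first-named gene in the summed TPM of its paralog pair (horizontal axis, percent), with 1 point per library, siNC in grey and siAHCYL1 in red, for the 16 pairs with both genes tested. The pair of RAB22A and RAB31 moves farthest, from 23.8% to 25.0% in siNC to 63.7% to 69.2% in siAHCYL1, and the siNC points of the RAB4 pair spread most.

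The promoters of the 3 pairs called in opposite directions are shown because each pair has closely related proteins whose RNA moved apart. Each run is 300 bases, from 250 before to 50 after the start of the gene's RefSeq annotation (build GRCh38.p14), read 5′ to 3′ on the strand of the gene. Capitals mark CACGTG, the E-box, and CATGTG or its reverse complement CACATG, the core of the M-box bound by MITF and related factors. RAB22A lies at chr20:58309465-58309764 on the plus strand, RAB31 at chr18:9708051-9708350 on the plus strand, RAB27A at chr15:55319074-55319373 on the minus strand, RAB27B at chr18:54717607-54717906 on the plus strand, RAB9A at chrX:13688878-13689177 on the plus strand and RAB9B at chrX:103832208-103832507 on the minus strand.
RAB22A: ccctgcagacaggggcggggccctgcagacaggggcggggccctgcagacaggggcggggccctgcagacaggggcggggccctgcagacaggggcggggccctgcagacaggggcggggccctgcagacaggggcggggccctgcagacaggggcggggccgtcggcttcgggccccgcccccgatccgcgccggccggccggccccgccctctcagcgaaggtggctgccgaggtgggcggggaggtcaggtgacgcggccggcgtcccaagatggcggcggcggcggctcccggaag
RAB31: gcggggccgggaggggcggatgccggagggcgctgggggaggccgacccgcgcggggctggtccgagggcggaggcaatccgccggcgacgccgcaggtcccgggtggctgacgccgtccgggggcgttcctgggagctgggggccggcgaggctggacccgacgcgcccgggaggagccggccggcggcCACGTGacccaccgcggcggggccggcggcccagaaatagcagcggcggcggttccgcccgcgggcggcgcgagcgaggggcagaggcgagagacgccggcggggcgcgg
RAB27A: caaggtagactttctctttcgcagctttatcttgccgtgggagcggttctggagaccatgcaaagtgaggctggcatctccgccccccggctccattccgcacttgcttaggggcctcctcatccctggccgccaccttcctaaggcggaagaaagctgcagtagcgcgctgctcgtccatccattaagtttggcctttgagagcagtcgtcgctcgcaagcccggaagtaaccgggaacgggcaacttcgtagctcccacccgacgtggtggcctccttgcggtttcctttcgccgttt
RAB27B: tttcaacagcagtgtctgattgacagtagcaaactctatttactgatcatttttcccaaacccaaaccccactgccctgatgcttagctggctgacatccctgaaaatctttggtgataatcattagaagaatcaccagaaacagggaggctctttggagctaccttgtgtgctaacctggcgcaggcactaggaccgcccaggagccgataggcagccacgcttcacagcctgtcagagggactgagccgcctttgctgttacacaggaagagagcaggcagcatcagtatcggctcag
RAB9A: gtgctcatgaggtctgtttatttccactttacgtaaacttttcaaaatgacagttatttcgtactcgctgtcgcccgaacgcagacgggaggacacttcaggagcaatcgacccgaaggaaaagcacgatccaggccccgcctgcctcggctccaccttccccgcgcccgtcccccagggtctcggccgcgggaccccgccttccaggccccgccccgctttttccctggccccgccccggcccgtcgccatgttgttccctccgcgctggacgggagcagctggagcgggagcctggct
RAB9B: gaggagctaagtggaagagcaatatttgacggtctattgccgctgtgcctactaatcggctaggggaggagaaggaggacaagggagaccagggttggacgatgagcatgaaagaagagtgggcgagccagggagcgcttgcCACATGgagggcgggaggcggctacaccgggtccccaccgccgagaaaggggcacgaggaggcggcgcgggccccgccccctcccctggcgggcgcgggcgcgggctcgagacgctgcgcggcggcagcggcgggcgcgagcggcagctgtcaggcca

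GC content was 80.3% for RAB22A and 82.7% for RAB31, 59.3% for RAB27A and 51.0% for RAB27B, and 64.3% for RAB9A and 69.0% for RAB9B, where the median of 27305 promoters was 58.3%. The E-box of RAB31 begins 60 bases before the start and the CACATG of RAB9B begins 108 bases before it. Both strands were searched, and CACGTG reads the same on each. RefSeq promoters matched 49 of the 62 members. CACGTG was in 6 of these (12.2%, against 7.44% of all promoters), those of RAB21, RAB24, RAB29, RAB31, RAB4A and RAB5A, of which RAB4A and RAB5A rose, RAB31 fell and the others did not pass. CATGTG or CACATG was in 3 (6.12%, against 11.2% of all promoters), those of RAB17, RAB3A and RAB9B. A match describes the letters and is not evidence of binding.

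The 7-mer GTATGCA in the 3′ UTR went with lower RNA across the whole table, as was known from earlier results of these data, so it was looked up in the members. With the longest annotated 3′ UTR of each gene in GENCODE 29, 36.8% of 1154 tested genes that carry it were lower, against 20.9% of 10811 that do not. The 7-mer came from these same libraries, so this difference is no new evidence, and the shares are not matched for UTR length. Among the RAB genes tested only RAB11A, RAB17 and RAB22A carry it, and of these 2 were higher and 0 lower. None of the 13 lower RAB genes, RAB31 and RAB3C included, has it in that UTR.

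Genes that load, switch and read the RABs were described from 4 fixed lists with no member among them. Of 116 tested, 44 were higher and 5 lower, that is 37.9% and 4.31%, against 30.4% and 21.2% of all genes. The 44 include TBC1D32, which met the filter only through the siAHCYL1 libraries. Median-of-ratios scaling gave 40 and 10, quantile normalization 36 and 12, and the fit without siAHCYL1 replicate 1 gave 40 and 9. The median log2 fold change was 0.17, against 0.06 for all genes.

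Among genes of prenylation, extraction and RAB chaperones, 4 of 8 were higher (50%) and 1 lower (12.5%), against 30.4% and 21.2% of all genes. CHML, the second RAB escort protein, fell from 28.26, 24.82 and 22.24 TPM to 8.06, 6.51 and 6.49 TPM (log2 fold change -1.70, SE 0.12, adjusted p = 7.51e-06), while its paralog CHM did not pass, at 30.7 ± 2.08 and 29.8 ± 3.35 TPM (-0.04, adjusted p = 0.73). CHML carries GTATGCA in its 3′ UTR, while the other lower partner and RAB-like genes, EVI5, USP6NL, TBC1D4, RAB3IL1 and IFT22, do not. Any part of the 7-mer in the fall of CHML was not tested. CHML shares exons with OPN3, which rose from 67.67, 66.23 and 68.29 TPM to 225.51, 202.20 and 199.46 TPM, so how reads were divided between these genes bears on the value. GDI2, which extracts RABs from membranes, did not pass (0.03, adjusted p = 0.854). The subunits of the RAB geranylgeranyl transferase, RABGGTB (0.46) and RABGGTA (0.43), both rose, and RABGGTB shares exons with ACADM, which rose by 0.71.

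Of 33 exchange factors tested, 9 were higher (27.3%) and 1 lower (3.03%), against 30.4% and 21.2% of all genes. The share higher is near that of the whole table. DENND5A, an exchange factor and binding partner of Golgi and endosomal RABs, rose from 20.6 ± 1.57 to 51.2 ± 5.52 TPM (1.27, adjusted p = 1.07e-05), and ST5 (0.62) and DENND6A (0.64) rose. Exons of ST5 overlap those of RPL27A on the opposite strand, so its value is uncertain. RPL27A fell from a mean of 189.7 to 146.5 TPM. RAB3IL1, which binds RAB3 and acts on RAB8, fell from 13.13, 13.78 and 14.67 TPM to 7.43, 6.10 and 7.77 TPM (-0.88, adjusted p = 0.000252). HPS1, which with HPS4 loads RAB32 and RAB38, was higher (0.50, adjusted p = 0.00174), while HPS4 did not pass (0.12, adjusted p = 0.201).

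Of 38 GTPase-activating proteins, 12 were higher (31.6%) and 3 lower (7.9%), against 30.4% and 21.2% of all genes. Among the 12, TBC1D32 met the filter only through the siAHCYL1 libraries, where it was high, so its call is no independent support. The share higher is near that of the whole table. TBC1D9B went from 51.4 ± 1.32 to 113 ± 4.17 TPM (1.12, adjusted p = 2.055e-06), TBC1D10B, a GAP of RAB27A and RAB35 among others, rose by 1.16 (adjusted p = 8.72e-06), and TBC1D2B (0.77) and TBC1D5 (1.00), the RAB7 GAP of the retromer, rose. TBC1D4, the insulin-regulated GAP of RAB10, fell (-0.73, adjusted p = 0.000254). Annotated exons of TBC1D5 overlap those of SATB1, which fell by 1.61.

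Of 37 effectors, 19 were higher (51.35%) and 0 lower, against 30.4% and 21.2% of all genes. The absence of falls depended on the fit. Under median-of-ratios scaling 16 were higher and 5 lower, and under quantile normalization 13 and 5. Leaving out siAHCYL1 replicate 1 gave 14 higher and 4 lower, and leaving out replicate 1 of both groups gave 15 and 4. BICD2, which links RAB6 vesicles to dynein, rose from 15.0 ± 1.35 to 37.9 ± 3.42 TPM (1.28, adjusted p = 1.1e-05). RABEP2 of the RAB5 and RAB4 pathway rose by 1.01 (adjusted p = 3.34e-05), RILP, which ties RAB7 to dynein, rose from 2.28, 4.33 and 2.85 TPM to 9.25, 8.98 and 8.19 TPM (1.27, adjusted p = 0.000358), and OPTN, an effector of RAB8, rose by 0.94 (adjusted p = 0.000364). Exons of OPTN overlap those of CCDC3 on the opposite strand, so its value is uncertain. CCDC3 was at 41.21 to 51.63 TPM in siNC and 34.0 to 42.51 TPM in siAHCYL1. Of the RAB27 effectors, SYTL4 was higher (0.35, adjusted p = 0.0459), MYRIP and SYTL3 did not pass, and SYTL1, SYTL2, SYTL5, EXPH5, UNC13D and MLPH did not reach the filter. Among 6 RAB-like genes outside the naming rule, 5 rose, IFT27 (1.00), RABL6 (0.59), RABL2B (0.55), RABL2A (0.62) and RABL3 (0.46), and IFT22 fell (-0.42). That is 83.3% higher and 16.7% lower, against 30.4% and 21.2% of all genes.

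**Figure D4:**
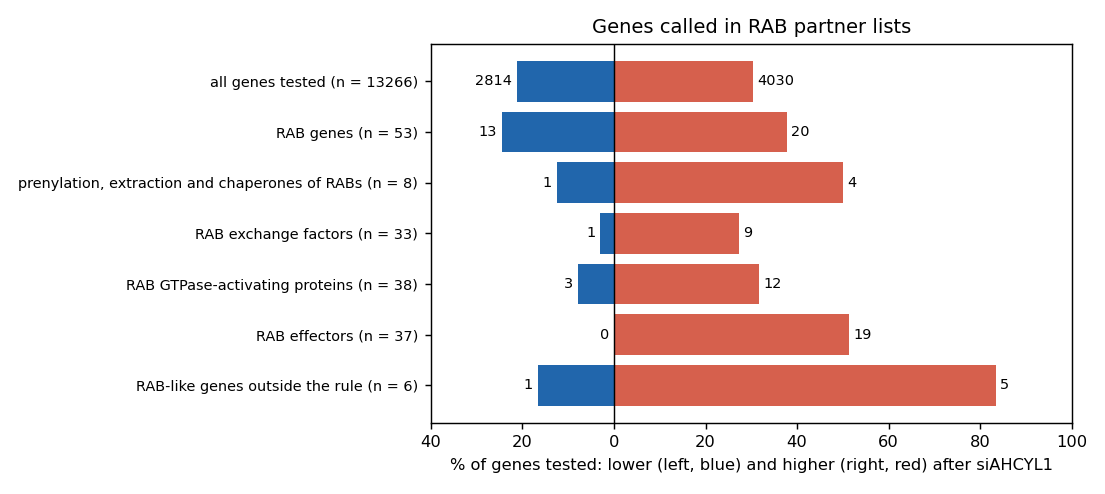
Percent of the genes tested that were called lower (blue, left of 0) or higher (red, right of 0) after the AHCYL1 siRNA, with the number of genes at the end of each bar, for all genes, the RAB genes and 5 lists of related genes. The effector list has 19 higher and 0 lower of 37, a split that shifts to 16 and 5 under median-of-ratios scaling.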

How the data were processed

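The authors deposited 1 table of TPM per gene symbol for 6 libraries, made with STAR, RSEM and GRCh38 per the submitters' processing notes. Neither their versions nor the annotation behind the gene symbols is given in the sources used here. Libraries were non-directional, per the labels' protocols. TPM keep no sequencing depth, and without it no interval for counting error was computed. Columns with the prefix si were assigned to siAHCYL1 because only 1 other group exists, and 0 columns belonged to other samples.

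Genes reaching 1 TPM in 3 or more of the 6 libraries were compared on log2(TPM + 1) by limma 3.58.1, run in R 4.3.3 (moderated test, intensity trend, two-sided, Benjamini-Hochberg over 13266 genes), after a run on simulated data. Members, roles, pairs and partner lists were chosen with earlier results of these data known, so no test was run over a list. Named in full are RAB27A, RAB32, RAB38, members called with a log2 fold change of at least 0.58 in size and the 3 most abundant. From each partner list up to 4 called genes with the smallest adjusted p were named, and the called gene most against its list; 1 gene that this rule names is not reported here. Other genes named with values were chosen after these were seen. Exon overlaps and 3′ UTRs come from GENCODE 29. Alternatives were a pseudocount of 0.1, other filters, 2 scalings, a replicate block, another variance model and left-out libraries.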

Additional observations from a re-analysis of the deposited data

How the results depend on the processing

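All 6844 genes called became 5672 to 6799 with 1 library left out, the 33 RAB genes 27 to 34, the 15 RAB genes with at least a 1.5-fold change 10 to 15 (10 without siAHCYL1 replicate 1), and the 49 partner genes 39 to 49. Over the 14 alternatives, 27 of the 33 called RAB genes kept their call in every fit they entered. The other 6, RAB4A, RAB8B, RAB17, RAB18, RAB35 and RAB38, lost it in at least 1, and 9 of 20 RAB genes not called passed in at least 1; no called RAB gene changed sign. RAB7A passed in 4, among them median-of-ratios scaling (-0.24, adjusted p = 0.0129). AHCYL1 was called in all 14. Of all calls, 58.9% were higher, against 50.8% after median-of-ratios scaling and 48.1% after quantile normalization, and of RAB calls 60.6%, 51.4% and 50%. The cause was not tested.

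The labels do not say what a shared replicate number means, and the numbers were not taken as pairs. Correlations of the deviations between libraries with the same number were 0.233, 0.001 and 0.154, and siNC replicate 2 correlated best with siAHCYL1 replicate 1 (0.009). With the replicate block 7919 genes, 35 RAB genes (15 at least 1.5-fold) and 59 partner genes were called, and RAB7A (adjusted p = 0.00833) and RAB11A (0.0477) passed. TPM give no depth, so its limits on low genes such as RAB30 and RAB27B cannot be stated.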
